A study of Homo sapiens with 6 samples.

Results

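The aminoacyl-tRNA synthetases form a family of 36 genes in this data set, 20 for cytosolic and 16 for mitochondrial enzymes. They were followed across 6 libraries of K562 cells, an established human erythroleukaemia line. The members were chosen by name: the cytosolic enzymes carry the plain symbols of the GENCODE 29 annotation (AARS to YARS), and the mitochondrial enzymes end in 2. They are 36 of the 33367 genes to which the deposited transcripts could be summed, and 35 of them passed the filter on low counts.

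The study examined deficiency of CDAN1, a gene mutated in congenital dyserythropoietic anaemia, by RNA sequencing of K562 clones with a doxycycline-inducible short hairpin RNA (shRNA). Clones c1 and c2 carried an shRNA against CDAN1, and clone NT carried a non-targeting shRNA. Every clone was kept in puromycin at 2 µg/ml and sampled at day 4 as 1 culture with doxycycline at 1 µg/ml and 1 culture without it. The groups, all in K562, were therefore CDAN1 shRNA with doxycycline (c1 and c2), CDAN1 shRNA without doxycycline (c1 and c2), NT shRNA with doxycycline, and NT shRNA without doxycycline. A difference between clones cannot be told apart from a difference between constructs or cultures. The p-values below compare these 6 libraries, with no separate cultures of a clone in the same state.

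An aminoacyl-tRNA synthetase joins an amino acid to its matching tRNA, the step that fixes the genetic code in translation. Cytosolic enzymes serve the ribosomes that make haemoglobin and most other proteins of an erythroid cell, whereas mitochondrial enzymes are encoded in the nucleus, imported, and serve the few proteins made from mitochondrial DNA. In class I enzymes the catalytic domain is a Rossmann fold, in class II enzymes it is built around antiparallel beta strands, and several cytosolic enzymes sit together in a multi-synthetase complex on the scaffold proteins AIMP1, AIMP2 and EEF1E1. When uncharged tRNA accumulates, the kinase GCN2 (gene EIF2AK4) acts through the transcription factor ATF4 to raise many cytosolic synthetase genes.

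Sites through which ATF4 acts are known as C/EBP-ATF response elements, and the promoters of the cytosolic genes were searched for their core. The letters searched were TGATGNAA on either strand, where N is any base, in the window from 250 bases before to 50 bases after the gene start in RefSeq (GRCh38.p14). A window was available for 30 of the 36 members. Some genes had more than 1 window, and a gene was counted once if any of its windows held the letters. Of the cytosolic genes with a window, 7 of 16 (43.8%) held the letters, compared with 1 of 14 mitochondrial genes (7.14%) and 4.46% of all 27305 genes with a window. The narrower letters TGATGCAA were found in 6 of the 16 cytosolic genes (37.5%), in 0 of the 14 mitochondrial genes and in 1.08% of all genes. The 8 matches, 7 cytosolic and 1 mitochondrial, are shown so that the letters counted can be seen in place. No test compared the classes, and the other 9 cytosolic genes with a window held no match. Each is a stretch of 30 bases read 5′ to 3′ on the strand of the gene, with the match in capitals.
AARS, chr16:70289675-70289704, minus strand: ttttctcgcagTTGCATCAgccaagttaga
CARS, chr11:3057407-3057436, minus strand: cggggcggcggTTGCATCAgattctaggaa
GARS, chr7:30594834-30594863, plus strand: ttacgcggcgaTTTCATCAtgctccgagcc
IARS, chr9:92293692-92293721, minus strand: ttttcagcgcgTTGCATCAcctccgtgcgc
MARS, chr12:57488053-57488082, plus strand: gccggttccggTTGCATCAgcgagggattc
NARS, chr18:57621804-57621833, minus strand: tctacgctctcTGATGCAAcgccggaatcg
TARS, chr5:33440956-33440985, plus strand: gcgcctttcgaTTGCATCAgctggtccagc
YARS2, chr12:32756076-32756105, minus strand: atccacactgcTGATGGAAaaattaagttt
A match of letters is a description and not a measured binding site. In 6 of these 8 genes the letters lie on the opposite strand to the gene, so that they read as TTGCATCA or TTTCATCA here, and NARS and YARS2 hold them in the forward direction.

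The libraries held 28318555 to 32352246 estimated reads, of which 6.23% to 6.5% fell on transcripts that GENCODE 29 does not list. CDAN1 had 17.0 CPM (reads scaled to a common library size) in c1 and 29.8 CPM in c2 with doxycycline, against 37.0 CPM in c1 and 55.4 CPM in c2 without it. In NT it had 70.2 CPM with and 62.5 CPM without doxycycline. The uninduced libraries of c1 and c2 therefore already lay below both NT libraries. All 8 erythroid markers that define the line were present, led by the fetal globin HBG2 at 12605 to 16132 TPM, a unit scaled to library size and transcript length. Of 6 markers of other cells, the T-cell gene CD3E, the B-cell gene MS4A1, the monocyte gene CD14 and the liver gene ALB stayed between 0 and 1.2 TPM, the fibroblast gene COL1A1 stayed between 0.741 and 4.25 TPM, and the epithelial gene EPCAM reached up to 44.6 TPM.

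Cytosolic synthetases stood far above mitochondrial ones in every library. The median of the mean TPM was 157 over the 20 cytosolic members, against 23.5 over the 15 mitochondrial members that were detected. Summed over members, the cytosolic enzymes reached 2908.5 to 3184 TPM and the mitochondrial enzymes 369 to 414 TPM, a ratio of 7.52 to 8.63. By mean TPM over all transcripts, 19 of the 20 cytosolic members lay above every mitochondrial member. With protein-coding transcripts alone the medians were 130 TPM for cytosolic and 20.9 TPM for mitochondrial members. On that scale the cytosolic HARS, at a mean of 47.6 TPM, lay below the mitochondrial IARS2, at 50.9 TPM.

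**Figure D1:**
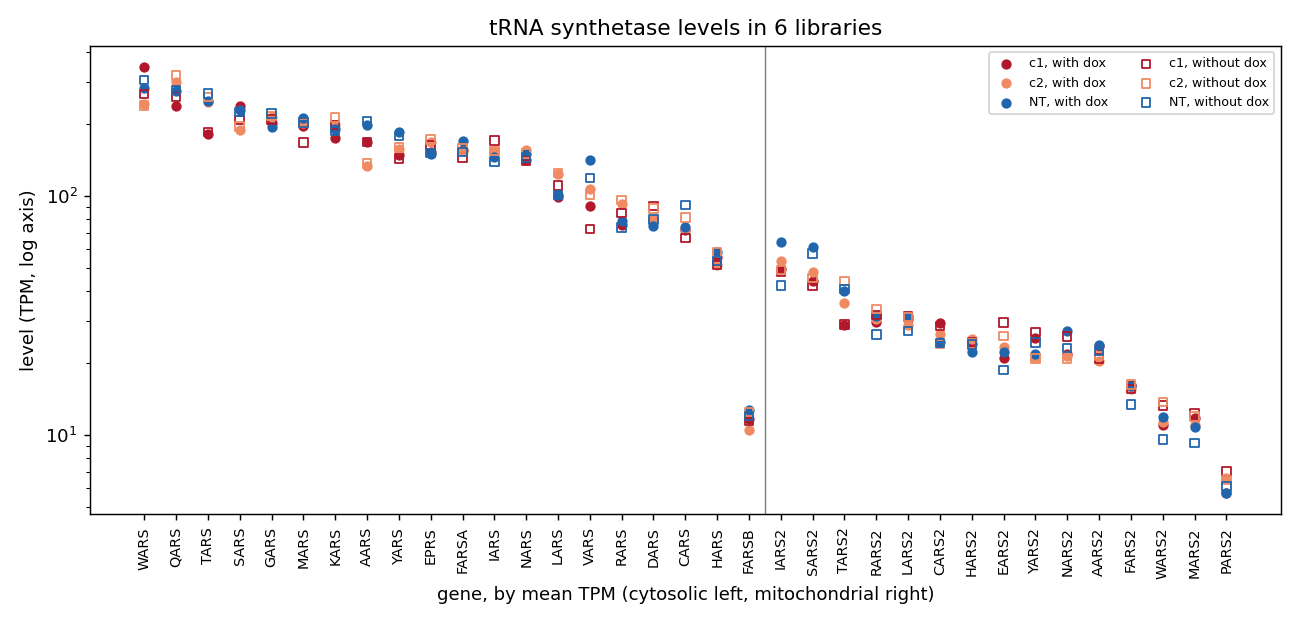
Level of each detected synthetase gene in each of the 6 libraries (TPM, log axis), ordered by mean within the cytosolic (left) and mitochondrial (right) enzymes; filled circles are libraries with and open squares libraries without doxycycline. The cytosolic FARSB sits among the lowest mitochondrial enzymes, and the spread between libraries is small beside the spread between genes.

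By mean TPM, the single cytosolic gene among the mitochondrial levels was FARSB, the beta subunit of phenylalanyl-tRNA synthetase. FARSB had 11.6, 10.5 and 12.7 TPM with doxycycline in c1, c2 and NT, and 11.5, 12.5 and 12.02 TPM without it in the same order of clones. Its partner FARSA, the alpha subunit of the same enzyme, had 155, 153 and 170 TPM with doxycycline and 144, 158 and 152 TPM without it. FARSA exceeded FARSB 12.6-fold to 14.6-fold in the 6 libraries. The enzyme is built of both subunits in equal number. Only 1 transcript of FARSB was matched in the files, against 10 of FARSA, and the part of this in the gap was not tested. In contrast, 13 mitochondrial members had a higher mean TPM than FARSB.

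Over all transcripts, the tryptophan enzyme WARS and the glutamine enzyme QARS stood at the top of the cytosolic range. WARS had 345, 242 and 283 TPM in c1, c2 and NT with doxycycline, and 267, 239 and 305 TPM without it. QARS had 237, 298 and 274 TPM with doxycycline, and 259, 318 and 277 TPM without it. The ranges of these genes overlapped, so their order was not separable by the spread over libraries. With coding transcripts alone the mean of QARS was 108 TPM instead of 277 TPM, and that of WARS 146 TPM instead of 280 TPM. The remainder was TPM of transcripts not annotated as protein-coding. On that scale neither kept the top place, which went to KARS at 188 TPM and GARS at 184 TPM. After FARSB, the lowest cytosolic member was the histidine enzyme HARS at 51.3 to 58.3 TPM, below the next one, CARS, at 66.7 to 91.7 TPM.

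Among mitochondrial enzymes the isoleucine enzyme IARS2 (42.1 to 64.3 TPM) and the serine enzyme SARS2 (41.9 to 61.0 TPM) were highest, with overlapping ranges. Both ranges also overlapped that of the cytosolic HARS, at 51.3 to 58.3 TPM. With coding transcripts alone SARS2 averaged 25.7 TPM and IARS2 50.9 TPM. PARS2, which charges mitochondrial proline tRNA, was lowest at 5.72 to 7.05 TPM and did not overlap any other member. Next came the methionine enzyme MARS2 at 9.25 to 12.4 TPM, which overlapped the tryptophan enzyme WARS2 at 9.56 to 13.8 TPM.

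The mitochondrial valine enzyme VARS2 is listed at 0 in every library, and no level can be given for it. Only 2 of its 12 GENCODE transcripts were matched, and neither codes for protein. A pair of unmatched transcripts with the length of its main coding transcript, 4073 bases, held 705 to 1128 and 327 to 422 reads per library, but the files do not name the gene they belong to.

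The lysine enzyme gene KARS and the glycine enzyme gene GARS each make a cytosolic and a mitochondrial enzyme. In KARS the mitochondrial form comes from a separate transcript, KARS-202 with 625 codons, beside the cytosolic KARS-201 with 597 codons. KARS-202 took 21.3% of the reads of KARS in c1 with doxycycline (95% Wilson interval 20.4 to 22.1), against 15.8% in c1 without it (15.0 to 16.5). In c2 the share was 19.7% with and 18.9% without doxycycline, and in NT it was 21.0% with and 20.9% without. The uninduced c1 library was therefore the low one, and the other 5 lay between 18.9% and 21.3%. GARS, whose mitochondrial form starts at an earlier codon, carried 95.9% to 98.3% of its reads on a single transcript, GARS-201, so the forms could not be counted apart. Intervals here cover counting error only, and each share rests on 1 library.

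Other members also divided their reads among transcripts. WARS-204, a coding transcript of 471 codons, held 14.3% of WARS reads in c1 and 16.7% in NT with doxycycline, against 8.28% in c1 and 7.52% in NT without it. In c2 the order was the other way round, at 9.42% with and 11.5% without doxycycline. WARS2-202, a shorter coding transcript of WARS2 with 220 codons, held 4.21% of WARS2 reads in c1 and 2.55% in NT with doxycycline, against 16.1% and 21.8% in those clones without it. In c2 it held 13.6% with and 12.1% without doxycycline. These shares moved together in a CDAN1 shRNA clone and the NT clone and not in the other CDAN1 shRNA clone. TARS-209, a threonine enzyme transcript annotated for nonsense-mediated decay, held 26.6% to 31.2% of TARS reads in all 6 libraries. The share of reads on transcripts not annotated as protein-coding averaged 33.4% for CARS2, 32.6% for TARS and 23.4% for QARS, the highest of the family. Transcripts annotated for nonsense-mediated decay, such as TARS-209, are part of this share.

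**Figure D2:**
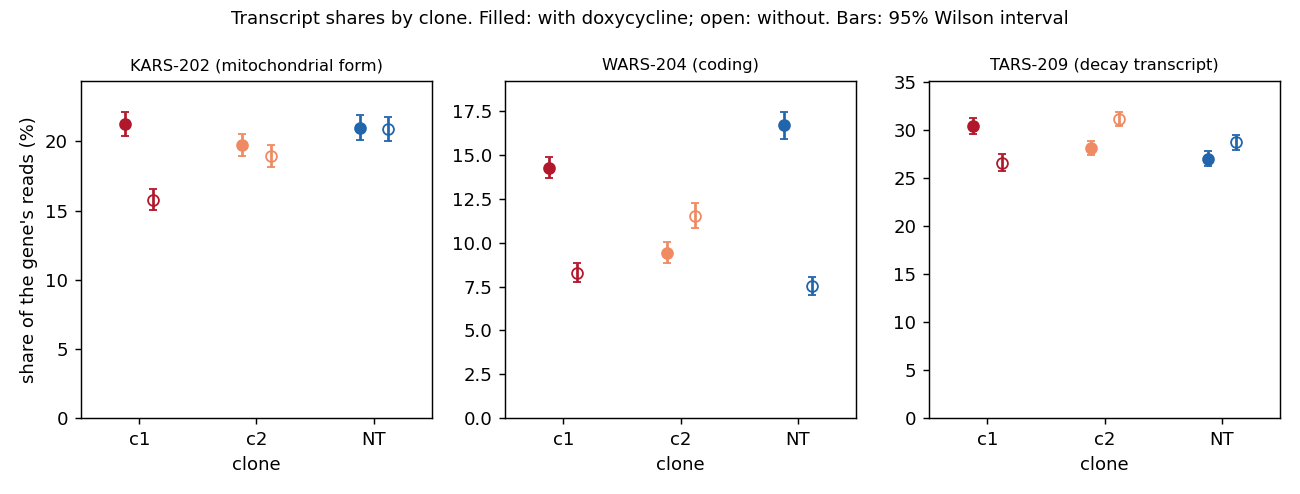
Share of the gene's estimated reads held by KARS-202, WARS-204 and TARS-209 (%) in clones c1, c2 and NT, with (filled) and without (open) doxycycline; bars are 95% Wilson intervals for counting error. KARS-202 is low in c1 without doxycycline at 15.8%, and WARS-204 is higher with doxycycline in c1 and NT but not in c2.

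The first comparison asked what induction of the CDAN1 shRNA did to the family. No member passed the test. In the CDAN1 shRNA clones with against without doxycycline, 0 of 35 members were called (0% of all 14075 genes tested) by edgeR's quasi-likelihood test with Benjamini-Hochberg adjustment at a threshold of 0.05. At an unadjusted p under 0.05 there were 0 members beside 1.47% of all genes, and DESeq2 called 0 members beside 0.0142%. With the clone as a block, 0 of 35 members were called beside 1% of all genes (141 genes), and 3 members had an unadjusted p under 0.05 beside 13% of all genes.

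The 2 CDAN1 shRNA libraries with doxycycline were also set against the 4 other libraries. Again 0 of 35 members were called by edgeR beside 0% of all genes, with 0 members at an unadjusted p under 0.05 beside 2.29% of all genes, and DESeq2 called 0 members beside 0.156%. With the clone as a block 0 of 35 were called beside 0.0426%, and WARS, VARS and DARS had an unadjusted p under 0.05 beside 11.6% of all genes.

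**Figure D3:**
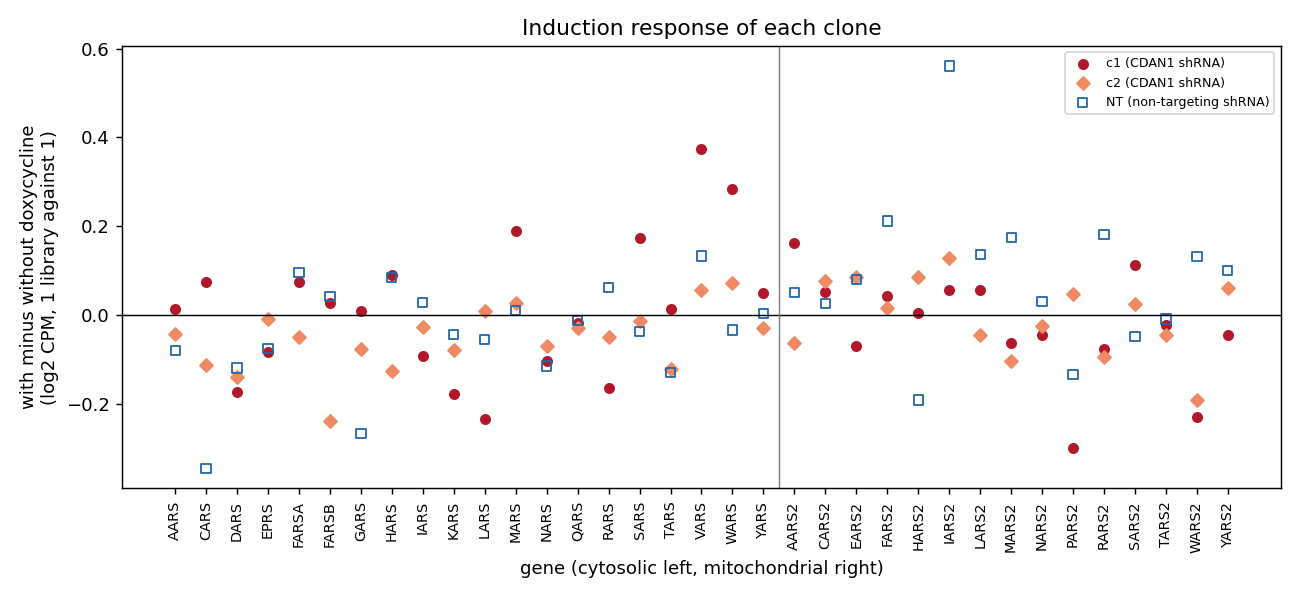
Response to doxycycline of each tested member in clones c1, c2 and NT, as log2 CPM with minus without doxycycline, 1 library against 1. Most points lie within 0.25 of 0, IARS2 in NT is the highest point at 0.56, and VARS and WARS in c1 follow at 0.37 and 0.28.

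The responses of single clones were small for most members. The log2 response exceeded 0.25 in either direction for 10% of cytosolic members in c1, 0% in c2 and 10% in NT. For mitochondrial members it did so for 6.67% in c1, 0% in c2 and 6.67% in NT. Over all genes tested, many of them low in counts, it did so for 34.4% in c1, 25.2% in c2 and 26.6% in NT. The median response of cytosolic members was 0.01 in c1, −0.04 in c2 and −0.04 in NT, and that of mitochondrial members was −0.02, 0.02 and 0.08. The response had the same sign in all 3 clones for 11 members: positive for MARS, VARS, CARS2, FARS2 and IARS2, and negative for DARS, EPRS, KARS, NARS, QARS and TARS2. Those are 14.3% positive and 17.1% negative, against 17.8% and 20% of all genes.

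The valine enzyme VARS and WARS had the largest positive differences among cytosolic members when the clone was a block. VARS had 292 CPM in c1 and 325 CPM in c2 with doxycycline, against 225 and 313 CPM in the same clones without it. In NT it had 445 CPM with and 405 CPM without doxycycline. VARS was higher with doxycycline in every clone, but the CDAN1 shRNA libraries overlapped between states. Its blocked log2 fold change was 0.21 ± 0.08 (SE), with an adjusted p of 0.284 in edgeR's quasi-likelihood test. WARS had 410 and 282 CPM in c1 and c2 with doxycycline, against 337 and 269 CPM without it. In NT it had 339 CPM with and 347 CPM without doxycycline. Its blocked log2 fold change was 0.18 ± 0.07 (SE), with an adjusted p of 0.309 in the same edgeR test. Both unblocked estimates changed sign when 1 c1 library was left out. VARS then ranged from −0.02 to 0.47 and WARS from −0.10 to 0.44 over the left-out libraries.

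The aspartate enzyme DARS had the largest negative difference of the cytosolic members. DARS had 152, 146 and 142 CPM in c1, c2 and NT with doxycycline, against 171, 160 and 154 CPM without it. It was lower with doxycycline within every clone, and the 3 libraries with doxycycline lay below the 3 without it. Over the 3 clones the log2 fold change was −0.14 ± 0.04 (SE), with an adjusted p of 0.238 in edgeR's quasi-likelihood test. That was the smallest adjusted p of any member in the comparison of doxycycline states, where 0 of 35 members were called beside 0.128% of all genes. At an unadjusted p under 0.05 there were 4 members, DARS, VARS, IARS2 and NARS, beside 13.6% of all genes. DESeq2 called 0 members beside 1.02% of all genes, and without the clone as a term edgeR called 0 beside 0%.

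Of the mitochondrial members, WARS2 and PARS2 had the largest negative blocked differences. WARS2 had 23.5 CPM in c1 and 23.8 CPM in c2 with doxycycline, against 27.6 and 27.2 CPM without it. In NT it had 23.6 CPM with and 21.5 CPM without doxycycline. The libraries of c1 and c2 did not overlap between states, and NT went the other way. The blocked log2 fold change was −0.21 ± 0.09 (SE), with an adjusted p of 0.389 in edgeR's quasi-likelihood test. PARS2 had 11.1 and 12.4 CPM in c1 and c2 with doxycycline, against 13.7 and 11.96 CPM without it, and 11.03 and 12.1 CPM in NT with and without it. PARS2 was lower in c1 and not in c2, and its blocked log2 fold change was −0.12 with an adjusted p of 0.757 in that edgeR test.

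A second question was whether the CDAN1 shRNA clones answered doxycycline differently from NT. No member did so past the threshold: 0 of 35 were called by edgeR, beside 0% of all genes, and DESeq2 called 0 beside 0.0355%. With the clone as a block 0 of 35 were called beside 0.135%, and 3 had an unadjusted p under 0.05 beside 4.92% of all genes. These were IARS2 and the cytosolic CARS and GARS, the latter at log2 differences of 0.33 ± 0.12 and 0.23 ± 0.10 (SE). The nearest was the mitochondrial isoleucine enzyme IARS2, the 1 member with an unadjusted p under 0.05 in the unblocked fit, beside 0.561% of all genes. IARS2 had 152, 157 and 194 CPM in c1, c2 and NT with doxycycline, against 146, 143 and 131 CPM without it. The NT library with doxycycline was the highest and the NT library without it the lowest of the 6. The difference of responses was −0.47 ± 0.14 (SE) on the log2 scale, with an unadjusted p of 0.0241 and an adjusted p of 1 in edgeR's quasi-likelihood test. With the clone as a block the adjusted p was 0.358. As the NT response rests on 1 library per state, the spread of NT cultures is assumed to equal that of the others.

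Whether the gap between enzyme classes moved with doxycycline depended on the unit and on how the members were summarised. The median log2 CPM of cytosolic minus that of mitochondrial members was 2.80, 2.89 and 2.81 in c1, c2 and NT with doxycycline, against 2.94, 3.01 and 2.94 without it. This difference of medians was therefore smaller with doxycycline in all 3 clones. The median log2 CPM response of the members went that way in c2 (cytosolic −0.04, mitochondrial 0.02) and NT (−0.04 and 0.08). In c1 it went the other way, at 0.01 for cytosolic and −0.02 for mitochondrial members. As log2(TPM + 1) the difference of medians was 2.62, 2.67 and 2.70 with doxycycline, against 2.46, 2.65 and 2.62 without it. On that scale it was larger with doxycycline in all 3 clones. No shift between the classes can be stated.

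More members were called between clones than between doxycycline states. Of the 35 members, 14 (40%) were called in at least 1 of the comparisons between clones, beside 43.2% of all genes. These were 10 of 20 cytosolic and 4 of 15 mitochondrial members. Clone c1 against NT gave 8 members (22.9%) beside 27.8% of all genes, with 1 higher and 7 lower. Clone c2 against NT gave 10 members (28.6%) beside 21.1% of all genes, with 2 higher and 8 lower. Over all genes, 13.8% were higher and 14.0% lower in c1, and 11.8% higher and 9.21% lower in c2. Clone c1 against c2 gave 9 members (25.7%) beside 26.8% of all genes, with 5 higher (11.9% of all genes) and 4 lower (14.9% of all genes). By direction, 2.86% of members were higher and 20% lower in c1 than in NT, and 5.71% were higher and 22.9% lower in c2 than in NT. Both directions combined, the shares of members called were near those of all genes, whereas the calls against NT were mostly lower among members and more evenly divided among all genes. The difference between members and all genes was not tested. In simulated data, false calls ran above the nominal level for c1 against NT, so that adjusted p-values in that comparison may be too small, and c2 against NT was not simulated. Each clone gave 2 libraries, and the tests adjusted for doxycycline. In bulk RNA, fewer cells of a kind and less RNA per cell cannot be told apart.

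**Figure D4:**
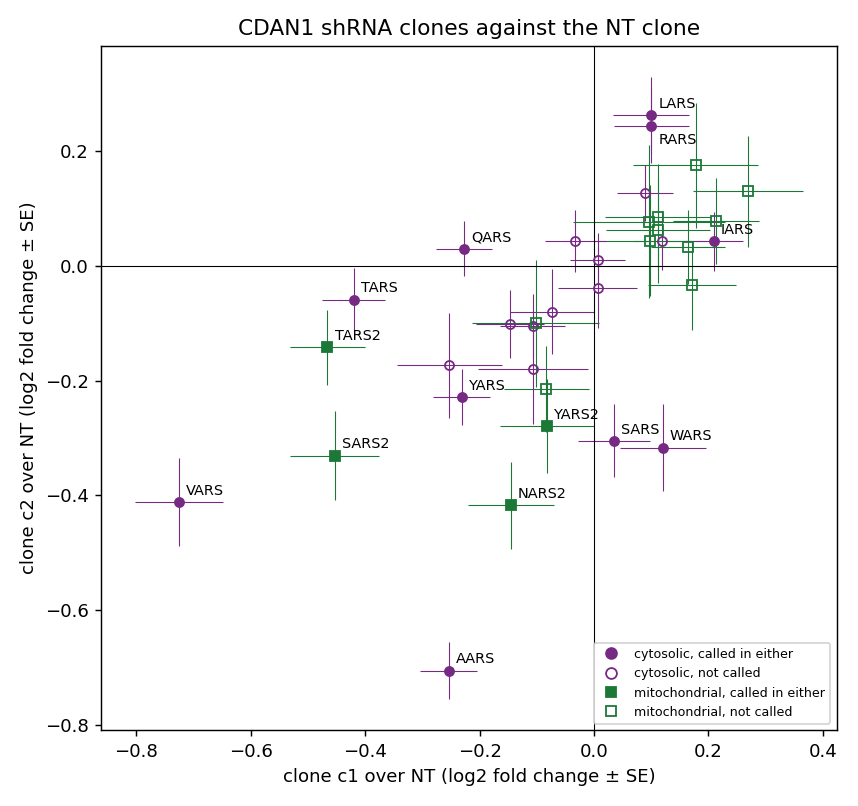
Log2 fold change of c1 over NT (horizontal) and of c2 over NT (vertical) for each tested member, with SE bars from edgeR; circles are cytosolic and squares mitochondrial enzymes, filled and named where either comparison was called. VARS at −0.73 in c1 and AARS at −0.71 in c2 are farthest from 0, and both comparisons share the NT libraries.

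Of the 27 calls, 7 held under every alternative and with any library left out. They concern 5 genes, AARS, VARS, TARS, TARS2 and SARS2, and in all but AARS between c1 and c2 the first-named clone was lower. The alanine enzyme AARS had 477 CPM in c1 and 342 CPM in c2 with doxycycline, against 551 CPM in NT with it. Without doxycycline AARS had 472 CPM in c1 and 352 CPM in c2, against 582 CPM in NT. The clones did not overlap, and c2 was lowest. The log2 fold change of c2 over NT was −0.71 ± 0.05 (SE, adjusted p = 0.000126, edgeR), which puts c2 at 61.3% of NT. Clone c1 exceeded c2 by 0.45 ± 0.05 (SE, adjusted p = 0.000695, edgeR). Between c1 and NT the fold change was −0.25 with an adjusted p of 0.00866, lost without NT without doxycycline (−0.22, adjusted p = 0.0787).

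VARS, which in the cell is bound to elongation factor 1, was lower in c1 and c2 than in NT. In the values given above, the 2 NT libraries lay above all 4 CDAN1 shRNA libraries. The log2 fold change of c1 over NT was −0.73 ± 0.08 (SE, adjusted p = 0.000736, edgeR) and that of c2 over NT was −0.41 ± 0.08 (adjusted p = 0.00857, edgeR). The VARS call in c2 was lost without c2 with doxycycline (−0.30, adjusted p = 0.0793). An unmatched transcript of the same length as the main VARS transcript, 4312 bases, held 795 to 1844 reads per library. Adding it gave −0.75 for c1 and −0.38 for c2.

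Cytosolic and mitochondrial threonine enzymes were both low in c1. The cytosolic TARS had 357 and 353 CPM in c1 with and without doxycycline, against 438 and 476 CPM in c2 and 454 and 497 CPM in NT. Its mitochondrial counterpart TARS2 had 53.2 and 54.0 CPM in c1, against 66.1 and 68.2 CPM in c2 and 73.9 and 74.3 CPM in NT. In either gene the c1 libraries lay below the other 4. The fold changes of c1 over NT were −0.42 ± 0.06 for TARS (SE, adjusted p = 0.00179, edgeR) and −0.47 ± 0.07 for TARS2 (adjusted p = 0.0024). Against c2, TARS differed by −0.36 ± 0.05 (adjusted p = 0.00286, edgeR) and TARS2 by −0.32 ± 0.07 (adjusted p = 0.00985). The TARS2 call against c2 was lost without either c2 library, with fold changes of −0.32 and −0.36. Neither TARS nor TARS2 was called between c2 and NT.

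The mitochondrial serine enzyme SARS2 was low in both CDAN1 shRNA clones. The gene overlaps the protein-coding genes AC011455.2 on the same strand and MRPS12 on the other. How reads were divided among these genes was not tested. SARS2 had 44.6 CPM in c1 and 47.2 CPM in c2 with doxycycline, against 57.8 CPM in NT with it, and 41.3 CPM in c1 and 46.3 CPM in c2 without it, against 59.8 CPM in NT. The fold change of c1 over NT was −0.45 ± 0.08 (SE, adjusted p = 0.00528, edgeR) and that of c2 over NT −0.33 ± 0.08 (adjusted p = 0.0217). The SARS2 call in c2 was lost with coding transcripts alone (−0.31), without either c2 library (−0.31 and −0.33) and without NT without doxycycline (−0.28). The cytosolic serine enzyme SARS differed only where c2 was involved. SARS had 235 and 237 CPM in c2 with and without doxycycline, against 288 and 295 CPM in NT, a fold change of −0.30 ± 0.06 (SE, adjusted p = 0.0139, edgeR). In c1 it had 317 and 281 CPM, and c1 exceeded c2 by 0.34 ± 0.06 (adjusted p = 0.00723). Both SARS calls were lost without c2 with doxycycline (−0.25 against NT, 0.28 between c1 and c2), and that against NT also without NT without doxycycline (−0.25).

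**Figure D5:**
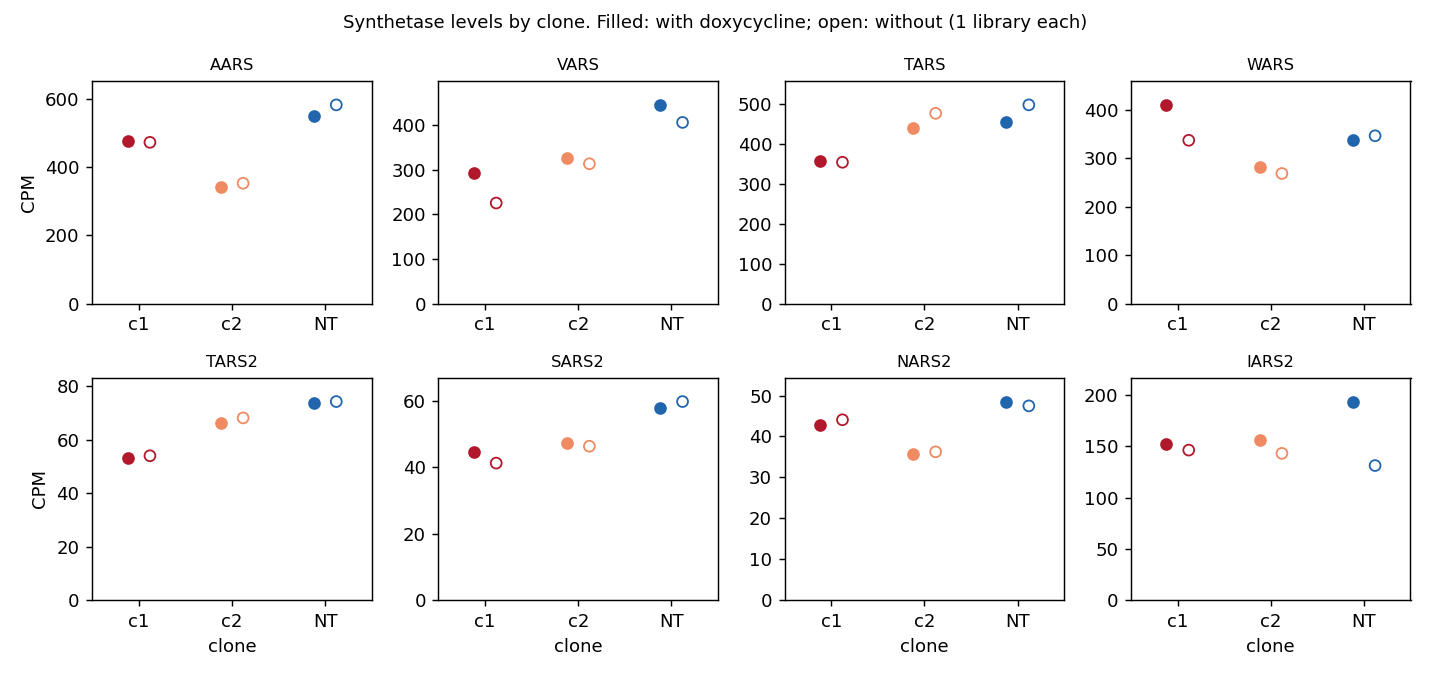
Level of 8 synthetase genes (CPM, from 0) in clones c1, c2 and NT with (filled) and without (open) doxycycline, 1 library per point. AARS is lowest in c2, TARS and TARS2 are lowest in c1, VARS and SARS2 are highest in NT, and IARS2 differs mainly between the NT libraries.

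WARS and the mitochondrial asparagine enzyme NARS2 were also low in c2. WARS in c2, at 282 and 269 CPM with and without doxycycline, lay below both libraries of every other clone. The fold change of c2 over NT was −0.32 ± 0.08 (SE, adjusted p = 0.0232, edgeR) and c1 exceeded c2 by 0.44 ± 0.08 (adjusted p = 0.00504). NARS2 had 35.7 and 36.3 CPM in c2 with and without doxycycline, against 48.5 and 47.5 CPM in NT, and 42.7 and 44.1 CPM in c1. Its fold change of c2 over NT was −0.42 ± 0.08 (SE, adjusted p = 0.00795, edgeR). The calls of WARS and NARS2 in c2 against NT, and that of WARS in c1 against c2, were lost once changes in transcript length were taken into account. The fold changes were then −0.35 for WARS and −0.31 for NARS2 in c2 against NT, and 0.41 for WARS in c1 against c2, with larger SE than before. The calls in c2 against NT were also lost without either c2 library, at −0.34 and −0.28 for WARS and −0.42 and −0.39 for NARS2. That of WARS was lost without NT without doxycycline as well, at −0.21.

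Among complex enzymes, IARS, LARS and RARS gave the only calls above NT. IARS, for isoleucine, was higher in c1 than in NT by 0.21 ± 0.05 (SE, adjusted p = 0.0214, edgeR), with 563 and 600 CPM in c1 with and without doxycycline against 508 and 498 CPM in NT. LARS, for leucine, was higher in c2 than in NT by 0.26 ± 0.07 (adjusted p = 0.0279, edgeR), and RARS, for arginine, by 0.24 ± 0.07 (adjusted p = 0.0353). Each of these 3 calls was lost in 3 of the 6 fits with a library left out. Without NT without doxycycline the values were 0.16 for IARS, 0.23 for LARS and 0.16 for RARS. The IARS call was also lost without NT with doxycycline (0.24), without c1 without doxycycline (0.16) or with the transcript length taken into account (0.20), that of LARS without NT with doxycycline (0.29) or c2 with it (0.20), and that of RARS without either c2 library (0.25 and 0.26), with the transcript length taken into account (0.25) or with coding transcripts alone (0.24). QARS was the complex member that was lower: it had 216 and 218 CPM in c1 with and without doxycycline, against 257 and 262 CPM in c2 and 253 and 255 CPM in NT. Its fold change of c1 over NT was −0.23 ± 0.05 (SE, adjusted p = 0.0122, edgeR), a call lost without either NT library (−0.24 in both fits) and with the transcript length taken into account (−0.14). In all, 2 of the 8 complex enzymes were called in c1 against NT, beside 27.8% of all genes, and 2 in c2 against NT, beside 21.1%. Of the 12 cytosolic enzymes outside the complex 4 were lower in c1 and 5 were lower in c2, and none was higher in either. Over all genes 14% were lower and 13.8% higher in c1, and 9.21% were lower and 11.8% higher in c2. The difference between enzymes inside and outside the complex was not tested. None of the scaffold genes AIMP1, AIMP2 and EEF1E1 was called in any comparison.

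The tyrosine enzyme YARS was lower in both clones, by −0.23 in c1 and −0.23 in c2, with adjusted p of 0.0122 and 0.0159 in edgeR's quasi-likelihood test. YARS had 343 and 331 CPM in c1 with and without doxycycline, 334 and 341 CPM in c2, and 396 and 395 CPM in NT. The YARS calls were lost without either NT library (−0.23 and −0.25 in c1, −0.23 in c2), and that in c2 also without either c2 library (−0.25 and −0.19). Its mitochondrial counterpart YARS2 was called in c2 against NT at −0.28 (adjusted p = 0.049, edgeR), and 4 of the 5 alternatives lost that call. The histidine pair HARS and HARS2, which lie head to head on opposite strands of chromosome 5 and overlap, gave no call. HARS had 85.2, 78.6 and 89.5 CPM in c1, c2 and NT with doxycycline, against 80.0, 85.7 and 84.3 CPM without it. HARS2 had 42.1, 41.8 and 36.3 CPM with doxycycline, against 42.0, 39.4 and 41.5 CPM without it. The sources used here do not state whether reads were assigned by strand, so reads from overlapping genes cannot be told apart. Of the 36 members, 11 overlap a protein-coding gene on the other strand.

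By structural class, 4 class I and 4 class II members were called in c1 against NT, of 18 and 17 tested, beside 27.8% of all genes. In c2 against NT there were 6 class I members, 2 of them higher, and 4 class II members, beside 21.1% of all genes. By regulation, 4 of the 12 cytosolic genes reported as ATF4 targets in mouse or human cells were called in c1 against NT, 1 of them higher, and 5 in c2 against NT, again 1 higher. The shares of all genes called were again 27.8% and 21.1%. Of the 8 other cytosolic genes 2 were called in each comparison, VARS and QARS in c1 and VARS and RARS in c2. The 7 cytosolic genes with the promoter letters shown above responded to doxycycline, at the median, by 0.01 (c1), −0.07 (c2) and −0.11 (NT) on the log2 scale. The 9 cytosolic genes with a window and no match had medians of 0.03, −0.05 and −0.01. These medians are descriptions of small sets that share libraries.

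Of 10 genes of the amino acid response, 0 were called for induction of the CDAN1 shRNA, for the difference from NT, or over doxycycline states. Of all genes, 0%, 0% and 0.128% were called in these comparisons. The median log2 response of the 10 genes to doxycycline differed by clone. It was 0.23 in c1, where 9 rose, −0.19 in c2, where 8 fell, and −0.29 in NT, where 9 fell. Each response is 1 library against 1, and the difference between clones was not tested. In c1 against NT, 4 of these 10 were lower and none was higher, beside 14% lower and 13.8% higher of all genes. They were ATF4 at −0.41, the GCN2 kinase gene EIF2AK4 at −0.48, the glutathione-degrading enzyme gene CHAC1 at −2.35 and the nutrient sensor gene SESN2 at −0.61. CHAC1 had 6.8 and 4.8 CPM in c1 with and without doxycycline, 16.2 and 25.2 CPM in c2, and 22.7 and 39.3 CPM in NT. In c2 against NT the serine synthesis gene PHGDH was the only one called, at −0.94, beside 21.1% of all genes called. Of 9 genes that act beside the mitochondrial synthetases, 4 were called in c1 against NT (27.8% of all genes): GATC at 0.27 and QRSL1 at 0.28, subunits of the enzyme that makes mitochondrial glutaminyl-tRNA, the tRNA modification gene GTPBP3 at −0.22, and the mitochondrial elongation factor gene TUFM at −0.16. In c2 against NT the tRNA modification genes GTPBP3 at −0.27 and MTO1 at −0.25 were lower, beside 9.21% of all genes. SEPSECS, which makes selenocysteine on its tRNA, was lower in c1 than in NT by −0.92 ± 0.09 (SE, adjusted p = 0.000429, edgeR), beside 14% of all genes. Of 4 elongation factor genes, EEF1B2 was lower in c1 (−0.24) and c2 (−0.20) and EEF1D in c2 (−0.22) than in NT. The shares of all genes that were lower were 14% in c1 and 9.21% in c2. Of 3 genes for editing of mischarged tRNA, AARSD1 was lower in c1 than in NT at −0.35, beside 14% of all genes. None of 3 genes for tRNA export and repair was called in any comparison. Erythroid markers differed between clones as well: of 8, 5 were lower in c2 than in NT, and 2 were lower and 1 higher in c1 than in NT. Of all genes, 9.21% were lower in c2, and 14% were lower and 13.8% higher in c1. The summed level of the 8 markers was 32043 and 30789 TPM in c1 with and without doxycycline, 26608 and 24200 TPM in c2, and 32934 and 30225 TPM in NT. The 6 markers of other cells summed to 28.3 and 39.3 TPM in c1 with and without doxycycline, 23.6 and 27.3 TPM in c2, and 42.9 and 46.9 TPM in NT. The part of these markers in the synthetase differences was not tested.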

How the data were processed

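RNA-seq libraries of total RNA of 6 K562 cultures were analysed from the authors' deposited transcript tables. The deposited values are estimated counts and TPM per transcript with an effective length, per the file headers. The submitters' processing notes name Salmon 1.5.2 as the tool and GRCh37 (also hg19) as the build. For trimming, annotation release and strand setting, the entry is: not given in the sources used here. Gene names came from GENCODE 29, whose coordinates are on GRCh38 and not on the authors' build. It matched 151039 of 167268 transcripts (90.3%), and the 16229 others were left out of gene sums.

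Estimated counts were summed over the transcripts of each gene identifier and rounded. They were fitted over all genes with edgeR 4.0.16 in R 4.3.3, after TMM scaling and filterByExpr with a smallest group of 2 (14075 genes). The quasi-likelihood tests were 2-sided, with Benjamini-Hochberg adjustment over all genes. CPM and log2 CPM use TMM-scaled library sizes, with a prior count of 2 for log values. TPM was summed as deposited. The scripts were tested on simulated data. There the share of false calls ran above the nominal level for the blocked induction fit, for doxycycline over 3 clones and for c1 against NT, so adjusted p-values there may be too small. The members and lists were chosen with earlier results of these data known.

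Named genes were members called in any comparison, the 3 cytosolic and 3 mitochondrial members of largest change in the blocked induction fit, the extremes of TPM in each class, the genes with forms in both compartments, and HARS with HARS2. Each clone gave both doxycycline states, so the clone pairs the libraries. Deviations from the means of groups that pool clones correlated within a clone at 0.792 for c1, 0.826 for c2 and 0.766 for NT over 11350 genes. Alternatives were DESeq2 1.42.0, its size factors, no filter, a transcript length offset, coding transcripts alone, the clone as a block, and each library left out. For the level of VARS and for blocked fits with DESeq2 or the length offset, the alternative was chosen after seeing the data. A further marker of another cell type is not reported here.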

Additional observations from a re-analysis of the deposited data

Results flagged for a closer look

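In 2 members, 1 of the 4 control libraries (CDAN1 shRNA without doxycycline and NT in both states) stood apart from the other 3. For NARS, the cytosolic asparagine enzyme, NT with doxycycline had 300.4 CPM, against 325 CPM in c1 without, 322 CPM in c2 without and 325 CPM in NT without doxycycline, and the gap took a share of 0.881 of the range. For WARS, c2 without doxycycline had 269 CPM, against 337 CPM in c1 without, 347 CPM in NT without and 339 CPM in NT with doxycycline, a share of 0.88 of the range. Chance flags about 1 in 20 groups of 4 independent libraries, and 35 members were examined. The control libraries are not independent, as NT gave 2 of them, so that rate need not hold here. For WARS the c2 library with doxycycline was low as well, at 282 CPM.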

How the results depend on the processing

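For synthetases no call arose for the CDAN1 shRNA, for its difference from NT or for doxycycline under any alternative run. The number of all genes called did move. The 2 CDAN1 shRNA libraries with doxycycline against the 4 others gave 0 genes, but 22 with DESeq2, 6 with the clone as a replicate block, 113 with the block in DESeq2 and 19 with the block and doxycycline as a term. Induced against uninduced CDAN1 shRNA clones gave 0, but 2 with DESeq2, 141 with the block and 69 with the block in DESeq2. The difference from the NT response gave 0, but 5 with DESeq2, 19 with the block, 8 with the block in DESeq2 and 1 with the block and length offset. Doxycycline over 3 clones gave 18, but 11 with DESeq2 size factors, 248 with no filter, 143 with DESeq2, 0 with the length offset, 1 with coding transcripts alone, 0 without the block, and 3 to 166 with a library left out. Pairing by clone changed no call of a member.

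Between clones, the length offset lowered all calls to 2369 from c1 against NT (3918), to 1792 from c2 against NT (2964, with 6 members in place of 10) and to 2311 from c1 against c2 (3766). With a library left out, c1 against NT gave 2224 to 3654 genes and 5 to 11 members, c2 against NT 1421 to 3496 genes and 1 to 11 members, and c1 against c2 1973 to 3953 genes and 4 to 8 members. The c2 minimum of 1 member, AARS, came without c2 with doxycycline.

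For single members, 325 values kept direction and call, 67 kept direction and lost the call, and 2 reversed: VARS was −0.018 without c1 uninduced (−0.018 to 0.474 over left-out libraries) and WARS −0.102 without c1 induced (−0.102 to 0.442). Under log2(TPM + 1) the class gap was 2.62, 2.67 and 2.70 in c1, c2 and NT with and 2.46, 2.65 and 2.62 without doxycycline, and the median response became 0.0195 for cytosolic members in NT, −0.055 for mitochondrial members in c2 and 0.20 for them in NT. With coding transcripts alone the median level was 130 TPM (cytosolic) and 20.9 TPM (mitochondrial). The cause of these shifts was not tested. The difference from NT could not be fitted without an NT library.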
